A study of Mus musculus with 4 samples.

Results

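The microRNAs (miRNAs) described here are mmu-miR-155, mmu-miR-146a and mmu-miR-146b, 3 of the 650 miRNA names on an Agilent mouse miRNA array, with all of their 6 probes on all 4 arrays. They were grouped as miRNAs induced by NF-kB signalling. The group was chosen by the measured difference of miR-155 between Lats2 knockout (KO) and wild-type (WT) cells in these same data. The KO and WT levels of the 3 miRNAs are therefore given as a description, with no test. The array measured total RNA of mouse embryonic fibroblasts (MEFs) with and without Lats2, a kinase of the Hippo pathway, and the comparison asked whether the higher signal of miR-155 extended to miR-146a and miR-146b.

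The KO cells (Lats2-/-) were clone #112-C, sampled at PDL 70 and 96, and the WT cells (Lats2+/+), from the same litter, were clone #112-K, sampled at PDL 68 and 90. PDL was taken to mean population doubling level, the age of a culture in divisions. All cells were of strain C57BL/6J, received no treatment and grew in DMEM with 10% inactivated serum. Each genotype was 1 clone, so genotype and clone cannot be told apart, and the spread within a group is that of 1 clone at different ages in culture. The array carries no probe for messenger RNAs, so loss of Lats2 itself was not measured. All 4 arrays lay on 1 slide with 1 scan date, and the replicate numbers follow the order of the records and pair no samples.

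NF-kB is the transcription factor family that carries signals from Toll-like receptors and inflammatory cytokines into the nucleus. It is known to induce miR-155, which is cut from a long noncoding transcript and is best known from activated immune cells, and miR-146a, which lowers the adaptor proteins Traf6 and Irak1 of the same pathway and so acts as a brake on it. miR-146b comes from another chromosome and shares the target-recognising seed of miR-146a.

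The mature sequences show which members can share targets and how far the probes can keep them apart. They are from RefSeq (GRCm38.p6), 5′ to 3′, with the seed (bases 2 to 8) in capitals.
mmu-miR-155: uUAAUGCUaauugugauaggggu
mmu-miR-146a: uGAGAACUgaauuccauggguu
mmu-miR-146b: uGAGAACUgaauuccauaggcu
Among 1738 mature sequences in the table, miR-146a and miR-146b shared their seed only with each other, and no other entry had the seed of miR-155. miR-146a and miR-146b differed at 2 of 22 bases, G18A and U21C, with positions counted from the 5′ end and the base of miR-146a given first. In the gene table of the same assembly, Mir155 lies within the long noncoding RNA gene Mir155hg on chromosome 16 and Mir146b lies within the long noncoding RNA gene Gm36493 on chromosome 19. Mir146, the gene of miR-146a on chromosome 11, lay within no other gene of that table.

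Each member had a longer and a shorter probe with 10 spots each on every array, and the longer probe of each is shown because it sets which bases were read. The probes are DNA, 5′ to 3′, and pair with the 3′ part of the miRNA.
miR-155 probe of 18 bases: acccctatcacaattagc
miR-146a probe of 19 bases: aacccatggaattcagttc
miR-146b probe of 19 bases: agcctatggaattcagttc
The miR-155 probe pairs with bases 6 to 23, and the probes of miR-146a and miR-146b pair with bases 4 to 22 of their own miRNA. The files place them on mm9 at chr16:84714394-84714410, chr11:43187908-43187925 and chr19:46417284-46417301, each span being 1 base shorter than the probe. Both positions at which miR-146a and miR-146b differ lie under the probes, so a probe of either has 2 mismatches to the other.

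KO replicates 1 and 2 had 157 and 161 miRNAs well above background, a flag that Feature Extraction sets for a spot, and WT replicates 1 and 2 had 125 and 129. A miRNA counted as above background on an array where more than a 0.5 share of the spots of its brightest probe carried that flag. The RNA had the miRNAs of fibroblasts: 5 of 6 fibroblast or mesenchymal markers were above background on all 4 arrays, with miR-145 above background on none, and their summed scaled signal ranged from 18870 to 24104 units. Of the blood cell, endothelial and epithelial markers, 0 of 7, 0 of 2 and 0 of 7 were above background on any array. With values under 1 unit set to 1, the summed signal of the blood cell markers was 7.19 and 8.05 units for KO, and for WT it was 7 and 14.2 units. The endothelial sum was 6.61 and 4.93 units for KO and 2 and 2 units for WT. The epithelial sum was 7.15 and 7 units for KO and 7 and 9.52 units for WT. The blood cell markers miR-142-3p, miR-150 and miR-223 were thus at background in the cells in which miR-155 was measured.

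miR-155 was above background on all 4 arrays, and its signal was higher in KO. The 18-base probe gave a mean processed signal of 63.9 ± 6.46 units in KO replicate 1 (SD over 9 spots, after 1 outlier spot was left out) and 62.2 ± 5.81 units in KO replicate 2 (SD over 10 spots). It gave 19.2 ± 2.96 units in WT replicate 1 and 20.4 ± 4.03 units in WT replicate 2 (SD over 10 spots each). The spots of the KO and WT arrays did not overlap, since the dimmest retained KO spot read 49.2 units, the KO spot that was left out read 44.0 units, and the brightest WT spot read 26.0 units. Of the 39 retained spots, 37 were well above background, and those that were not were 1 on each WT array. Spots of 1 array measure the same RNA and are not replicates of a genotype.

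**Figure D1:**
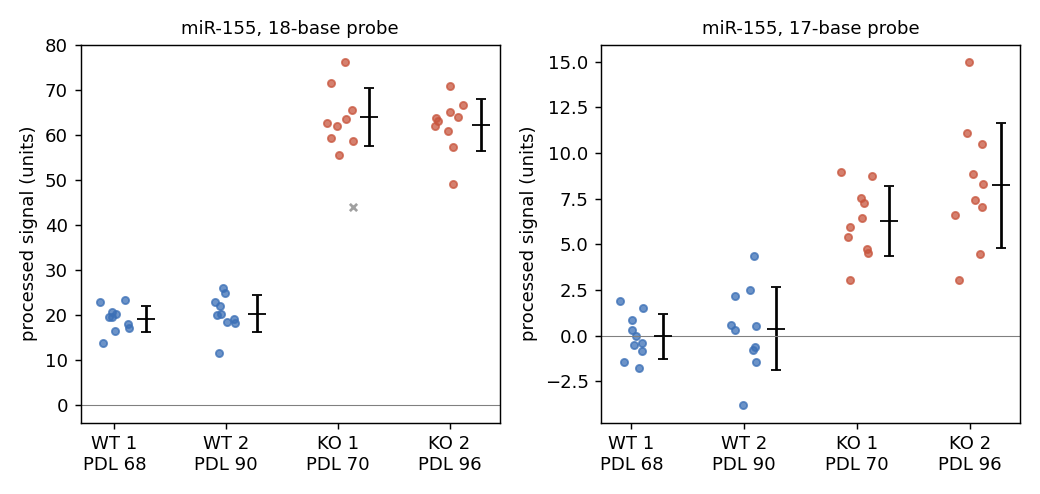
Processed signal (units, linear axis) of every spot of the 18-base (left) and 17-base (right) miR-155 probe on the 4 arrays, with WT in blue, KO in red and the spot flagged as an outlier as a grey cross. Black bars are the mean and SD over the retained spots, and the vertical scales of the panels differ. With the 18-base probe the KO spots lie at or above 49.2 units and the WT spots at or below 26.0 units.

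After each array was scaled to its 75th percentile, miR-155 read 5.94 and 5.82 on the log2 scale in KO replicates 1 and 2 and 4.33 and 4.50 in WT replicates 1 and 2. Both KO arrays were above both WT arrays, with 1.32 between the lower KO and the higher WT value. The same order of arrays was found in 60.4% of the 159 miRNAs bright enough to be tested, some of which passed that filter through 1 genotype only. The group means were 5.88 ± 0.08 in KO and 4.41 ± 0.13 in WT (SD, n = 2), a log2 difference of 1.47 ± 0.10 (SE), or 2.76-fold. This is the contrast by which the miRNAs were chosen, so it has no p-value here.

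The difference has to be read against the other miRNAs, since the median of those tested was also higher in KO under the reported scaling. Tests covered the 159 miRNAs that were above background in both cultures of either genotype. Of these, limma called 57.9% in either direction at an adjusted p under 0.05, with 43.4% higher and 14.5% lower in KO. These shares rest on both KO arrays, since the 92 calls became 39 (33 higher, 6 lower) without KO replicate 1 and 37 (31 higher, 6 lower) without KO replicate 2. The median difference of the tested miRNAs was 0.31 on the log2 scale, and that of miR-155 was 1.16 above the median. Some of the tested miRNAs passed the filter through 1 genotype only. More miRNAs were above background in KO than in WT, so this filter can itself raise the share called higher. Among the 115 miRNAs above background on all 4 arrays, the median was 0.17, with 42 called higher and 21 lower. Of the 114 other miRNAs above background on all 4 arrays, 4 had a larger KO minus WT difference under the reported processing. miR-155 was chosen by this contrast, so its rank was set in part by that choice. The split of 69 higher and 23 lower calls depended on the scaling: it was 51 and 42 after quantile normalization, 38 and 36 after median scaling, 92 and 15 without scaling, and 43 and 28 where Feature Extraction's total signal was used.

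miR-155 stayed higher in KO under every scaling tried, but the size of the difference did not stay the same. The log2 difference was 1.67 without scaling, 1.06 after median scaling and 0.70 after quantile normalization, with medians over the tested miRNAs of 0.52, -0.09 and 0.12. Background correction by normexp with an offset of 50 units, which is close to the KO signal of miR-155 itself, left 0.46. Scaling to the 5 fibroblast or mesenchymal markers above background, an alternative chosen after seeing the data, gave 1.55. It used the sum of their signals, most of which was miR-21, at 13.79 to 14.23 on the log2 scale. That miRNA is also on the NF-kB list below.

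**Figure D2:**
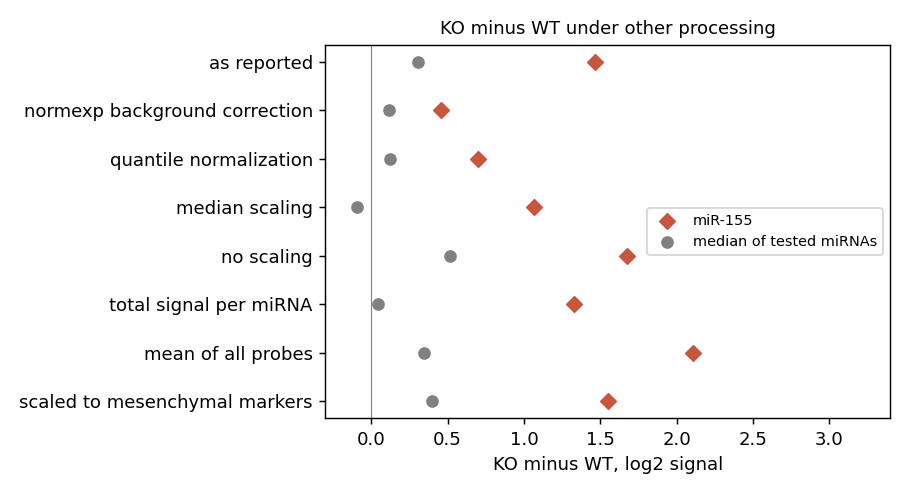
KO minus WT difference on the log2 scale (horizontal axis) under the reported processing and 7 alternatives (rows), for miR-155 (red diamonds) and as the median of the 159 tested miRNAs (grey circles). miR-155 lies above 0 and above the median in each row, from 0.46 with normexp to 2.10 with the mean of all probes.

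The other miR-155 probe is 1 base shorter, lacking the base that pairs with base 6 of the miRNA, and was much dimmer. Its mean signal was 6.26 and 8.23 units in KO replicates 1 and 2, and -0.032 and 0.387 units in WT replicates 1 and 2. None of its spots was well above background on any array, so no fold is given for it. Its spots ran from 3.06 to 8.98 and from 3.03 to 15.0 units on the KO arrays, and from -1.77 to 1.92 and from -3.81 to 4.36 units on the WT arrays. The level of miR-155 reported here therefore rests on 1 probe. The total signal that Feature Extraction gives per miRNA, computed from both probes, was 47.2 and 46.4 units for KO, against 13.2 and 13.8 units for WT, and its detection flag was set on all 4 arrays.

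The WT signal of miR-155 was close to the dimmest signal that carried the flag. The dimmest probe called well above background read 14.8 and 15.5 scaled units on WT replicates 1 and 2, where miR-155 read 20.0 and 22.7 units. On KO replicates 1 and 2 the dimmest such probe read 15.2 and 12.5 units, and miR-155 read 61.3 and 56.5 units.

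miR-146a was not above background in either genotype. Of its 80 spots over the 4 arrays, 0 were flagged as well above background. The mean over its retained spots was -2.61 and -2.30 units in KO replicates 1 and 2 and -3.43 and -3.86 units in WT replicates 1 and 2. The probe means ran from -3.88 to -1.54 units, all below 0 after the subtraction of background. The detection flag of Feature Extraction was set on 0 of the 4 arrays.

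miR-146b was at background as well, again with 0 of 80 spots well above it. The mean over its retained spots was -2.21 and -2.53 units in KO replicates 1 and 2 and -3.31 and -2.98 units in WT replicates 1 and 2. Its brightest retained spot read 6.55 units and lay on WT replicate 2. Its passenger strand, mmu-miR-146b*, was carried by 4 probes with 5 spots each and had 0 spots above background on any array. miR-155* and miR-146a* are not among the names on the array.

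The negative control spots, which read higher than most of the dim miRNA probes given below, are 1 measure of the background on the same arrays. They averaged 4.08 ± 2.46 and 3.79 ± 2.46 units on KO replicates 1 and 2 and 3.26 ± 1.97 and 3.87 ± 2.65 units on WT replicates 1 and 2 (SD over spots). No retained spot of miR-146a or miR-146b exceeded the 95th percentile of the controls of its array, which lay between 6.41 and 8.43 units. The 1545 probes of other miRNAs that were above background on no array had medians of -2.64, -2.73, -3.25 and -1.30 units on KO replicates 1 and 2 and WT replicates 1 and 2, and the values of miR-146a and miR-146b lay among them, between 5th percentiles of -6.59 to -6.03 and 95th percentiles of 3.52 to 8.19 units. A difference between the genotypes in miR-146a or miR-146b was not detectable at this signal, and no fold is given, since both groups were below background.

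**Figure D3:**
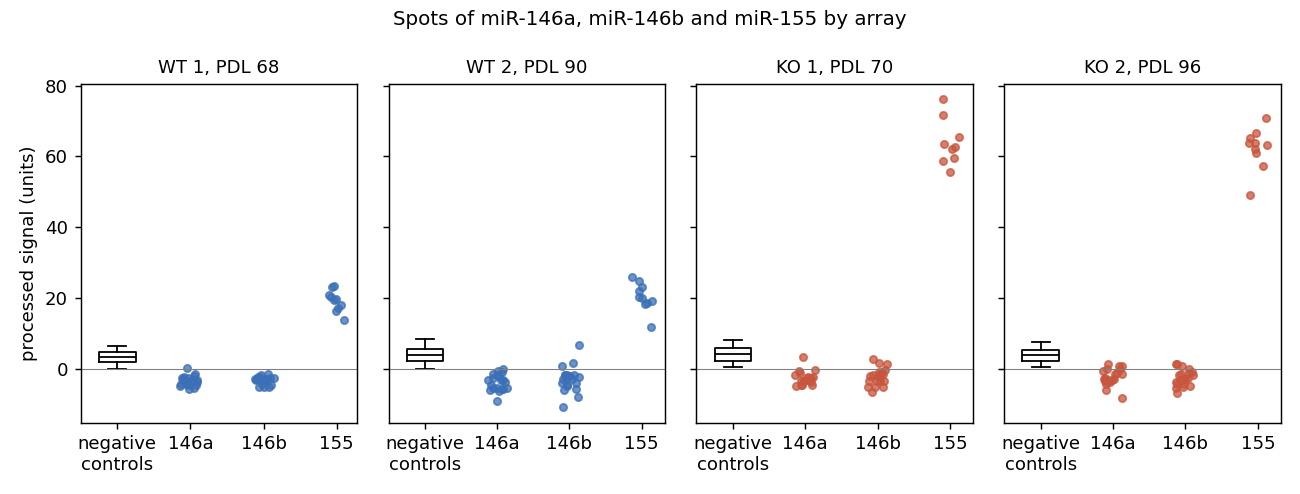
Processed signal (units, linear axis) of the negative control spots (box from the lower to the upper quartile with the median as a line, whiskers at the 5th and 95th percentile) and of every retained spot of miR-146a, miR-146b and the 18-base miR-155 probe, 1 panel per array. Most spots of miR-146a and miR-146b lie around or below 0 on all 4 arrays, with the highest, of miR-146b, at 6.55 units on WT replicate 2. Those of miR-155 lie above the controls' 95th percentile.

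The age of the culture is a contrast that played no part in the choice of the miRNAs, and it was tested with genotype in the model. Between the lower and the higher PDL, miR-155 changed by -0.12 on the log2 scale in KO and by 0.18 in WT. The fitted difference over both genotypes was 0.03 ± 0.12 (SE, limma, adjusted p = 0.938), with a 95% interval from -0.42 to 0.48 before adjustment. Of the 159 miRNAs, limma called 0% between the PDL classes, with 8 at an unadjusted p under 0.05 and a lowest adjusted p of 0.826. The KO minus WT difference of miR-155 was 1.61 between the younger cultures and 1.32 between the older ones. It is the contrast by which miR-155 was chosen, so its size cannot be weighed against the changes with PDL. miR-146a and miR-146b were below background at every PDL and were not tested.

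A list of 13 other miRNAs reported to rise with NF-kB signalling or after lipopolysaccharide, fixed by name and with no claim to be complete, was also examined. All 13 are on the array, and 9 were above background on all 4 arrays and were tested. Of these 9, 0 were called higher, 6 were called lower and 3 were not called. Over all tested miRNAs, 43.4% were called higher and 14.5% lower. Most of the 6 are encoded next to another of them, as described below, so they are not independent counts. The median difference of the 9 was -0.57 on the log2 scale, against 0.31 over all tested miRNAs. Among the 115 miRNAs above background on all 4 arrays, as these 9 were, the median was 0.17, with 42 called higher and 21 lower. The members, like the 3 miRNAs above, were listed with earlier results of these data known, and no test of the list was made. The other 4, miR-9, miR-132, miR-147 and miR-224, were above background on no array.

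miR-221 and miR-222, neighbours in the genome that share a seed and lower the cell cycle inhibitor p27, had the largest negative differences of the 9 under the reported processing, while normexp left -0.40 for miR-222. miR-221 read 9.10 and 9.01 on the log2 scale in KO replicates 1 and 2 and 9.89 and 10.09 in WT replicates 1 and 2, a difference of -0.94 ± 0.10 (SE, limma, adjusted p = 0.0069). miR-222 read 4.49 and 4.48 in KO and 5.33 and 5.64 in WT. Its difference was -1.001 ± 0.13 (adjusted p = 0.011 by limma). Its KO values were close to the dimmest signal that carried the flag, 3.93 and 3.64 on KO replicates 1 and 2. In both miRNAs, the KO arrays lay below the WT arrays, as in 19.5% of the tested miRNAs. That share includes miRNAs that passed the filter through KO or WT only. It was not computed for the 115 above background on all 4 arrays. Without either KO array neither was called.

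miR-23b, miR-27b and miR-24, which are encoded together in a cluster (miR-24 has a further copy elsewhere), were lower as well. miR-24 read 10.05 and 10.22 in KO and 10.91 and 11.04 in WT, a difference of -0.84 ± 0.10 (adjusted p = 0.0084 by limma). miR-23b differed by -0.61 and miR-27b by -0.57 (adjusted p = 0.013 and 0.034 by limma). The KO arrays lay below the WT arrays in all 3, as they did in 19.5% of the tested miRNAs, a share with the same limit. Without scaling, miR-23b and miR-27b were no longer called, at -0.41 and -0.36 (adjusted p = 0.067 and 0.148 by limma). The call of miR-27b was also lost with PDL class as a block, without WT replicate 1 and where all probes were averaged (adjusted p = 0.085, 0.076 and 0.0997 by limma).

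miR-125b-5p, the mammalian relative of lin-4, read 12.54 and 12.53 in KO and 13.08 and 13.11 in WT, a difference of -0.56 ± 0.06 (adjusted p = 0.0060 by limma). When either KO array was left out, its adjusted p was 0.042 and the other 5 calls were lost, at the same direction and with adjusted p values from 0.063 to 0.17. Those fits take their spread from the WT arrays alone and assume that the single KO array varies like them. Without the filter on dim miRNAs the same 5 calls were lost, with adjusted p values from 0.067 to 0.22. miR-21, an abundant fibroblast miRNA, differed by -0.20 (adjusted p = 0.356 by limma), miR-212 by -0.21 (adjusted p = 0.053 by limma) and miR-30b by 0.24 (adjusted p = 0.18 by limma). The status of miR-21 and miR-212 depended on the processing. miR-21 was called lower after median scaling and without WT replicate 2 (-0.60 and -0.39, adjusted p = 0.026 and 0.049 by limma), and it was at 0.01 without scaling and at 0 after quantile normalization. miR-212 was called lower after quantile normalization, after median scaling and with the total signal (-0.995, -0.61 and -0.53, adjusted p = 0.013, 0.022 and 0.025 by limma) and with a floor of 8 units (adjusted p = 0.037), and it was at -0.0046 without scaling. miR-30b, called under none of the alternatives run, turned to -0.50, -0.16 and -0.05 after quantile normalization, after median scaling and with the total signal.

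**Figure D4:**
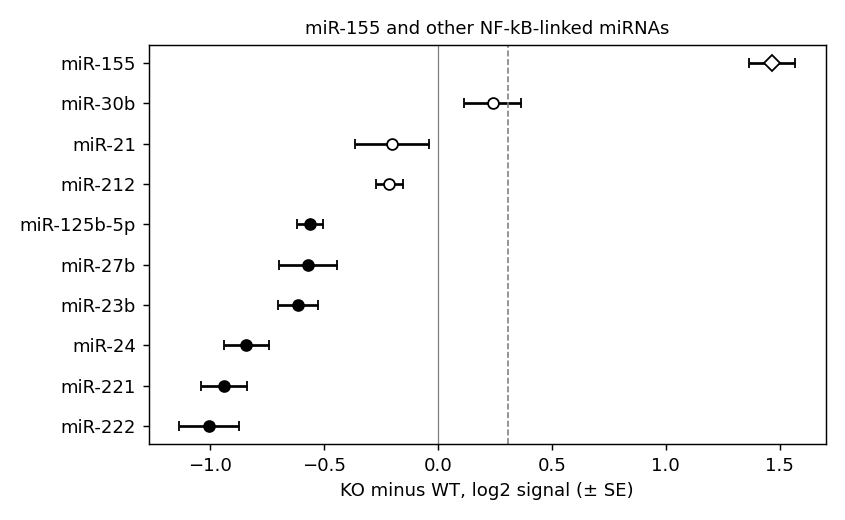
KO minus WT difference on the log2 scale with its SE for miR-155 (diamond, shown as a description) and the 9 tested miRNAs of the NF-kB list (circles, filled where called by limma). The dashed line is the median of all tested miRNAs at 0.31, and 6 of the 9 listed miRNAs are called on the lower side while miR-155 lies at 1.47.

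The miRNAs whose values over the 4 arrays were most like those of miR-155 were miR-96, miR-193b, let-7c, miR-1224 and miR-183. Likeness was measured as the root mean square difference between log2 values centred on each miRNA's own mean, over the 4 arrays and the 114 other miRNAs above background on all of them. It was 0.15 for miR-96, 0.21 for miR-193b, 0.22 for let-7c and 0.23 for both miR-1224 and miR-183. Their KO minus WT differences were 1.72, 1.17, 1.07, 1.28 and 1.92 on the log2 scale, chosen for being close to that of miR-155. miR-1224 differed from the rest in its KO replicates, which read 10.35 and 9.63. None of the 5 is on the NF-kB list, and 4 arrays of 2 clones cannot order these miRNAs finely.

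**Figure D5:**
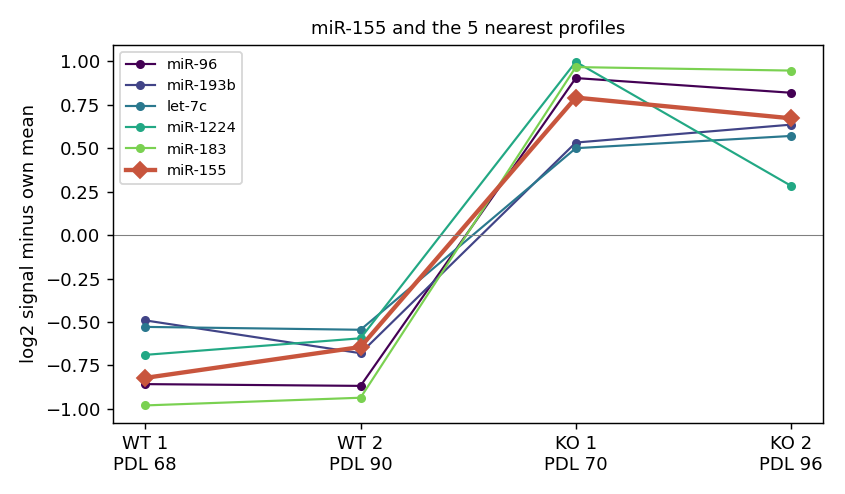
Log2 signal of miR-155 (thick red line) and of the 5 miRNAs nearest to it, each minus its own mean over the 4 arrays (vertical axis), by array. Lines only join the values of a miRNA, which all lie below 0 in both WT arrays and above 0 in both KO arrays.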

How the data were processed

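Total RNA of 4 MEF cultures was labelled with Cy3 and hybridised to 1 single-colour Agilent mouse miRNA array each. Per the file headers, the authors used Agilent Feature Extraction 10.5.1.1 to give every spot a linear intensity, detrended and with background subtracted. It was not normalized between arrays and is negative below background. The deposited files also hold the mean intensity, the background intensity, 1 summed signal for each miRNA and other flags of 0 or 1. The deposited series matrix held the same intensity, within 0.495% of each array's scanner values, with column medians of -0.585, -0.581, -2.01 and 0.595 units (KO replicates 1 and 2, WT replicates 1 and 2), so its scale and direction are known. Each array had 13715 spots, of which 13000 belonged to 1857 probes, and 0 of these were saturated.

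Control and outlier-flagged spots were left out and the spots of a probe averaged. Arrays were scaled to the mean of their 75th percentiles (531 and 562 units in KO, 488 and 458 in WT) over the 192 probes that were well above background everywhere, then floored at 1 unit and put on the log2 scale. The probe with the highest mean represented a miRNA. KO and WT, and the PDL classes with genotype as covariate, were each tested by lmFit and eBayes of limma 3.58.1 (R 4.3.3), two-sided and with Benjamini-Hochberg adjustment. The fits were tested on simulated data. P-values measure only the spread between cultures of 1 clone, and the 2 arrays per group limit the precision.

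The members, lists and tests were chosen with earlier results of these data known. The miRNAs named are the members, their passenger strands, the NF-kB list, marker lists and the 5 profiles nearest to that of miR-155. Names follow the array's design and can be old. All 3 members matched RefSeq by name, miR-155 as mmu-miR-155-5p and the others likewise. Probe positions are those of the files on mm9, and no GRCm38.p6 coordinate was used.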

Additional observations from a re-analysis of the deposited data

Results flagged for a closer look

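miR-155 moved in opposite directions with PDL in the 2 genotypes: the log2 signal changed by -0.12 from PDL 70 to 96 in KO and by 0.18 from PDL 68 to 90 in WT. Each value rests on 1 pair of arrays, and the difference of -0.30 between them was not tested. The difference between KO and WT is the contrast by which miR-155 was chosen, so its size cannot be weighed against these changes.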

How the results depend on the processing

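miR-155 kept its direction between KO and WT under all alternatives run. Its log2 difference of 1.47 moved by more than the spread between replicates to 0.46 with normexp, 0.70 with quantile normalization, 1.06 with median scaling, 1.67 without scaling, 1.33 with the total signal, 2.10 with the mean of all probes and 2.74 with the other probe, whose WT values were at the floor. It was 1.38 to 1.55 when 1 array was left out. Of the alternatives chosen after seeing the data, keeping outlier spots, the series matrix values and scaling to mesenchymal markers gave 1.47, 1.46 and 1.55. The 92 miRNAs called between KO and WT became 60 with no filter on dim miRNAs, 39 with the methods' t-test at a fold of 2 and 33 after Benjamini-Hochberg, and 37 to 89 when 1 array was left out, with 39 without KO replicate 1 and 37 without KO replicate 2. The 6 calls of the NF-kB list became 2 with no filter (miR-125b-5p and miR-132, which is below background), 1 with the t-test and 0 after adjustment, and 1 to 7 when 1 array was left out. The PDL difference of miR-155 was -0.12 to 0.18 when 1 array was left out, values with no test, and 0 miRNAs were called between PDL classes under any alternative run. The t-test calls also require a fold of 2, which among the 6 of the NF-kB list only miR-222 reached, at -1.001. Apart from this threshold, the cause of the shifts was not tested. With PDL class as a block, 70 miRNAs and 5 of the list were called. Scaling to the 75th percentile over all miRNA probes could not be run, since that percentile was -0.104 units on WT replicate 1. Both genotypes being below background limits what can be said of miR-146a and miR-146b.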
